A study of Mus musculus with 8 samples.

Results

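The Gnas domain on distal mouse chromosome 2 is represented here by 4 genes, Gnas, Nespas, Stx16 and Npepl1, which were chosen by name and all of which were found among the 22810 genes with allele-specific counts. Single blastocysts were collected at embryonic day 3.5 from natural matings of B6 (the standard inbred laboratory strain C57BL/6) and cast (an inbred Mus musculus castaneus strain), and their polyadenylated RNA was sequenced with SMART-Seq2, a method for full-length cDNA from minute RNA samples. The forward cross with a B6 mother and a cast father was represented by 3 embryos, the reverse cross with a cast mother and a B6 father by 5, with no treatment or mutation in either. Each embryo gave a maternal and a paternal count of reads spanning a SNP between the strains, so that 8 embryos gave 16 allele libraries. Whole embryos were lysed, and therefore fewer cells of a type and less RNA per cell cannot be told apart.

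Genomic imprinting is the expression of a gene from only the maternal or only the paternal copy, and it is set by marks such as DNA methylation that the gametes pass on. Gnas encodes Gsα, the G protein subunit that couples hormone receptors to adenylyl cyclase and so to the second messenger cAMP. The locus has several promoters. Nesp is a maternally expressed transcript, the extra-large form Gnasxl and the exon 1A transcript are paternally expressed, and Gsα itself is made from both copies in most tissues and mainly from the maternal copy in a few. Nespas is a noncoding RNA that runs antisense to Nesp from a region methylated on the maternal copy in the oocyte, and it is known as a paternally expressed RNA that acts on Nesp in cis. Stx16 encodes syntaxin 16, a SNARE protein of the trans-Golgi network, and deletions in its human counterpart disturb imprinting of the neighbouring GNAS locus. Npepl1 encodes a protein of the leucine aminopeptidase family.

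In the mm10 annotation (GENCODE), the genes lie on chromosome 2 in the order Stx16 (chr2:174076308-174099771, plus strand), Npepl1 (chr2:174110349-174123070, plus strand), Nespas (chr2:174281237-174295436, minus strand, annotated as antisense) and Gnas (chr2:174284320-174346744, plus strand, protein-coding). Nespas and Gnas overlap over 11117 bases on opposite strands, and 988 of the 3143 exon bases of Nespas (31.4%) are also exon bases of Gnas. The counts are given per gene, so the Nesp, Gnasxl, exon 1A and Gsα transcripts are summed in the value for Gnas.

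Of 4 windows before starts of Gnas transcription in the RefSeq table, 3 are shown because the value for Gnas sums over them and because the upstream one lies inside Nespas. The fourth, with 22 CG dinucleotides, overlaps the exon 1A window, and a Gnasxl window is not shown. The 250 bases before each start are given on the plus strand, from RefSeq (GRCm38.p6), with every CG dinucleotide, the target of DNA methylation, in capitals.
Gnas window before the Nesp start, chr2:174284070-174284319: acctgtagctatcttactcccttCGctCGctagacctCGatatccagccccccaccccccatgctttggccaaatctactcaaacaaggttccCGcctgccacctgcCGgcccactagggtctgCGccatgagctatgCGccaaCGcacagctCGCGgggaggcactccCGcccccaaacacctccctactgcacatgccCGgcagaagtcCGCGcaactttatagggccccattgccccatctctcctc
Gnas window before exon 1A, chr2:174327499-174327748: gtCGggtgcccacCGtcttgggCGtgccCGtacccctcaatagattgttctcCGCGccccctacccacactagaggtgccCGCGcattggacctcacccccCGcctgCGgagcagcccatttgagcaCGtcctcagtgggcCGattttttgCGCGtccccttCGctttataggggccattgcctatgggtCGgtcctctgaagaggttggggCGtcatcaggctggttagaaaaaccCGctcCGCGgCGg
Gnas window before the Gsα start, chr2:174329756-174330005: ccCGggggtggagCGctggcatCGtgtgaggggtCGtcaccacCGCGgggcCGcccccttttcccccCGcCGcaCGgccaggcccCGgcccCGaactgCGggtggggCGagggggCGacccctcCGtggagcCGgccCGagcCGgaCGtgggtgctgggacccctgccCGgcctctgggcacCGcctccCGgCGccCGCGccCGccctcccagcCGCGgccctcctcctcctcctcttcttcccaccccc
The Nesp window holds 14 CG dinucleotides and lies within the span of Nespas, the exon 1A window holds 21, and the Gsα window holds 29. The median over 32851 promoter windows of that length was 6, and 70.6%, 83.7% and 93.2% of them had fewer than the Nesp, exon 1A and Gsα windows. The motif TGCCGC, the sequence recognised by the imprint-protecting zinc finger protein ZFP57, was searched on both strands and was absent from these 3 windows, and 8.68% of all windows held it. The table of windows matched 3 of the 4 genes. Besides Gnas these were Npepl1, with 31 CG dinucleotides in its window, and Stx16, with 15 and 9 in 2 windows.

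The embryos held 1060063 to 1632695 SNP-spanning reads, and 41.7 to 42.3% of them were paternal in the forward embryos and 57.4 to 58.1% in the reverse embryos. Taking every autosomal gene with 20 or more reads per embryo, the forward cross had a median paternal share of 44.1% ± 0.509 (SD, n = 3) and the reverse cross one of 56.4% ± 0.998 (SD, n = 5). The median gene was thus not at 50% in either cross. Reverse embryo 1 stood apart from the other reverse embryos, with a chi-square per gene of 40.6 to 72.5 against each of them compared with 7.58 to 20.8 among them, and with 1350 reads in 8 trophectoderm genes, scaled to the depth of the embryo (RPM), against 4044 to 4278. Forward embryo 1 held 860 RPM in 7 macrophage genes, of which 1373 of 1374 reads were maternal, whereas the other 2 forward embryos held 41.7 and 57.6 and the reverse embryos 1.28 to 4.78. The parental differences of the 4 genes are given with and without these 2 embryos. The blastocyst label was matched by reads of trophectoderm genes (4314 to 5387 RPM in the forward embryos) and of 6 epiblast genes and 5 primitive endoderm genes (599 to 875 and 547 to 616 there, 420 to 789 and 412 to 710 in the reverse embryos).

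Nespas was read from the paternal copy alone in every embryo. The forward embryos 1, 2 and 3 held 31, 5 and 7 paternal reads, and the reverse embryos 1, 2, 3, 5 and 7 held 14, 8, 9, 8 and 5, whereas all 8 embryos held 0 maternal reads. Thus 43 cast reads of the forward cross and 44 B6 reads of the reverse cross were paternal, and the preferred strain turned with the direction of the cross. The 0 of 87 reads allowed a maternal share of up to 3.45%, which covers counting error only. Within single embryos the limit ranged from 9.68% in forward embryo 1 to 60.0% in the embryos with 5 reads. Compared with a floor of 3 reads in each maternal library, 24 in all, the paternal reads were at least 3.63-fold higher.

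The parental difference of Nespas was called across all genes tested (edgeR quasi-likelihood test, adjusted p = 8.77e-04). Of the 12566 autosomal genes with 10 or more reads in 1 or more allele libraries, 1.11% were called toward the paternal allele at an adjusted p of at most 0.1, and 0.31% toward the maternal allele. The fitted log2 ratio of paternal to maternal reads was 6.54 (SE 0.94), a value that depends on the prior count of the fit because the maternal reads were 0. An exact permutation test over the embryos, swapping the parental labels within each (2-sided), gave p = 0.0078, the smallest that 8 embryos allow. Without forward embryo 1, which held 31 of the 87 reads, the fitted ratio was 5.92 (edgeR adjusted p = 0.0181), and without reverse embryo 1 it was 6.41 (adjusted p = 0.0018). Reads from the paternal copy alone in every embryo, with at least 1 in each, were found for 6 genes or 0.0477% of those tested, and these were Nespas, Mcts2, Snurf, Otx2, Gm40040 and 4930445N18Rik.

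**Figure D1:**
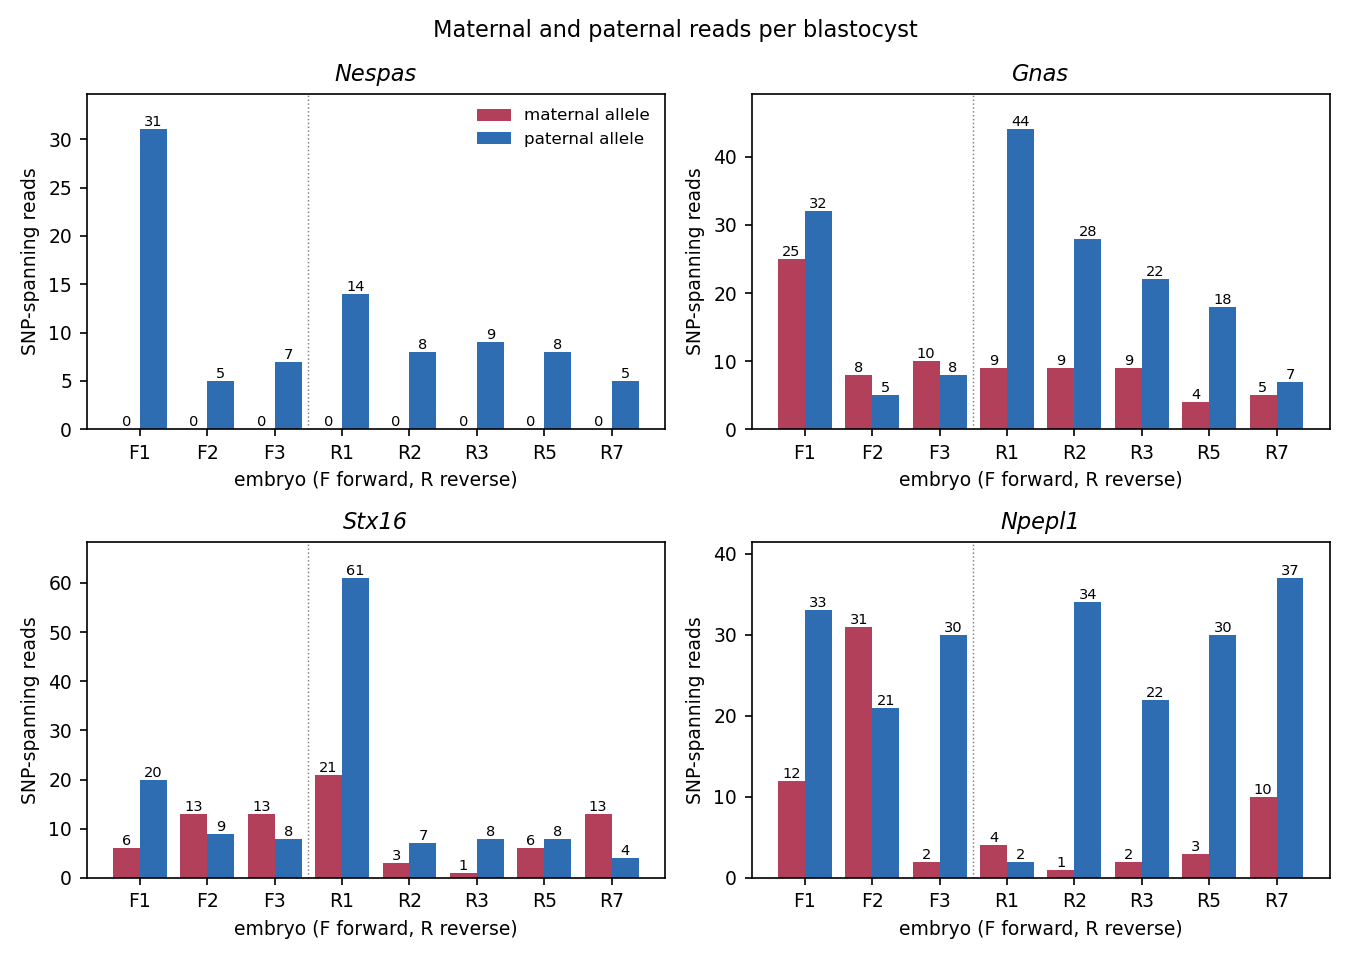
Maternal (red) and paternal (blue) SNP-spanning reads of Nespas, Gnas, Stx16 and Npepl1 in each of the 3 forward (F) and 5 reverse (R) embryos, with the number of reads above each bar. Nespas has 0 maternal reads in all 8 embryos, whereas the order of the alleles changes between embryos for Gnas, Stx16 and Npepl1.

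The maternal reads of 8 other paternally expressed genes are set beside the 0 of Nespas. Peg3, Snrpn, Snurf, Kcnq1ot1, Airn, Mcts2, Zdbf2 and Slc38a4, the 8 genes called toward the paternal allele among 13 tested of a list of 18, held 107 maternal and 4752 paternal reads, a maternal share of 2.20%. Forward embryo 1 had a maternal share of 6.09% over these genes (43 reads, 30 of them from Kcnq1ot1), and the other 7 embryos had 0.193 to 2.59%. These genes were picked by their paternal call in the same data, so that a low maternal share follows in part from the choice. Of the tested genes left out, Usp29, Zim3 and Inpp5f were 52.3%, 26.1% and 57.1% paternal, and Sgce and Plagl1 92.9% and 100%. The maternal limit of Nespas was above the 2.20% of the 8 genes, and therefore a maternal share like theirs was not detectable at the depth of Nespas.

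The reads counted for Gnas came from both copies, with a higher paternal share in the reverse cross. In the forward cross the paternal ones were close in number to those of Nespas, as given below, and whether they were Nespas reads was not tested. In the forward embryos 1, 2 and 3, 32, 5 and 8 reads were paternal and 25, 8 and 10 maternal. In the reverse embryos 1, 2, 3, 5 and 7, 44, 28, 22, 18 and 7 reads were paternal and 9, 9, 9, 4 and 5 maternal. All 5 reverse embryos held more paternal reads, as did 1 of the 3 forward embryos. The paternal copy gave 46.3% ± 8.99 (SD, n = 3) of reads in forward embryos and 74.0% ± 9.999 (SD, n = 5) in reverse embryos, and the shares of the crosses did not overlap (38.5 to 56.1% and 58.3 to 83.0%). The difference of 27.6 percentage points gave p = 0.0179 in an exact permutation test of the embryos between the crosses (2-sided), the smallest that 3 against 5 embryos allow. The medians of all genes, at 44.1% and 56.4% as given above, did not overlap between the crosses either (43.6 to 44.5% and 55.4 to 58.0%). The test did not take off this shift of all genes, so its p does not show a difference particular to Gnas. How many other genes had shares without overlap was not counted. Without reverse embryo 1, 2, 3 or 5 the difference for Gnas was 25.4, 27.2, 28.4 or 25.7 points (exact permutation test, p = 0.0571 for each). Without reverse embryo 7 it was 31.5 points (exact permutation test, p = 0.0286), so that 0.0571 was not the smallest p possible there. Without forward embryo 1, 2 or 3 it was 32.5, 23.7 or 26.7 points (exact permutation test, p = 0.0476 for each). The smallest p that the test allows is larger with fewer embryos.

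No parental difference of Gnas was called. The fitted log2 ratio was 0.81 (SE 0.42, edgeR quasi-likelihood test, adjusted p = 0.762), with a 95% interval of -0.01 to 1.63, and the exact permutation test over embryos gave p = 0.0938. It was 0.59 without forward embryo 1 and 0.70 without reverse embryo 1 (edgeR adjusted p = 1 and 0.805). Equivalence of the parental alleles within a log2 margin of 1 was not called either (edgeR, adjusted p = 0.453), whereas it was called for 35.4% of the genes tested. Thus neither a parental difference nor like levels were shown for Gnas. The strain difference, cast over B6, was -0.46 (SE 0.42, edgeR adjusted p = 0.574) and -0.72 without forward embryo 1 (adjusted p = 0.544), and a strain difference in either direction was called for 15.4% of genes. Those calls fell into 1372 toward B6 and 563 toward cast, and into 2251 and 325 with 1 library size per embryo, which moved the median strain difference of all genes from -0.06 to -0.40 on the log2 scale. The strain difference of Gnas was -0.82 under that setting (edgeR adjusted p = 0.214).

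The reads of Gnas and of the antisense gene Nespas were close to each other in number where both were paternal in the forward cross. Forward embryos 1, 2 and 3 held 32, 5 and 8 paternal reads for Gnas and 31, 5 and 7 for Nespas, a difference of 1, 0 and 1 read. In the reverse embryos 1, 2, 3, 5 and 7 the paternal reads of Gnas exceeded those of Nespas by 30, 20, 13, 10 and 2. The count for Gnas was at least that for Nespas in 16 of 16 allele libraries. Use of strand in the counting is not given in the sources used here, and without strand, reads of a gene and its antisense partner cannot be told apart.

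The same comparison was made for 2 other imprinted genes with an antisense RNA. Kcnq1, a potassium channel gene that contains the antisense RNA Kcnq1ot1, held the same number of reads as Kcnq1ot1 in 13 of 16 allele libraries and at most 4 more in the others, with 41 maternal and 1423 paternal reads for Kcnq1 and 36 and 1422 for Kcnq1ot1. Igf2r, the receptor gene of the Airn domain, overlaps Airn only in part, and its reads exceeded or equalled those of Airn in 8 of 16 libraries. Igf2r held 144 maternal and 473 paternal reads, whereas Airn held 45 and 687. The counts of Kcnq1 and Kcnq1ot1 were therefore nearly 1 set of values, and whether the Nespas reads were also counted for Gnas was not tested.

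The Nespas reads were then taken off those of Gnas, a calculation that was prompted by the near-equal paternal reads of the forward cross. Of the 14200 bases spanned by Nespas, 11117 overlap Gnas. Whether reads were counted over exons or over whole spans was not tested. The calculation takes off all Nespas reads, although part of Nespas lies outside Gnas, in exons and in span. Its values are therefore given as a description. In the forward embryos 1, 2 and 3, 1, 0 and 1 paternal reads were left against 25, 8 and 10 maternal reads. In the reverse embryos 1, 2, 3, 5 and 7, 30, 20, 13, 10 and 2 paternal reads were left against 9, 9, 9, 4 and 5 maternal reads. B6 was then the copy with more reads in 7 of 8 embryos, maternal in all 3 forward embryos and paternal in 4 of the 5 reverse embryos. The paternal share became 4.31% ± 4.56 (SD, n = 3) in the forward cross and 61.0% ± 19.2 (SD, n = 5) in the reverse cross. Of the 156 reads left, 118 were B6. The fitted strain difference was -1.81 (SE 0.67), and the fitted parental difference, -1.17 (SE 0.67), had turned toward the maternal copy. The macrophage reads given above were maternal and were highest in forward embryo 1, which held 25 of the 43 maternal Gnas reads of its cross, and their part in these values was not tested. Without that embryo the fitted parental and strain differences were -0.96 and -1.59.

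**Figure D2:**
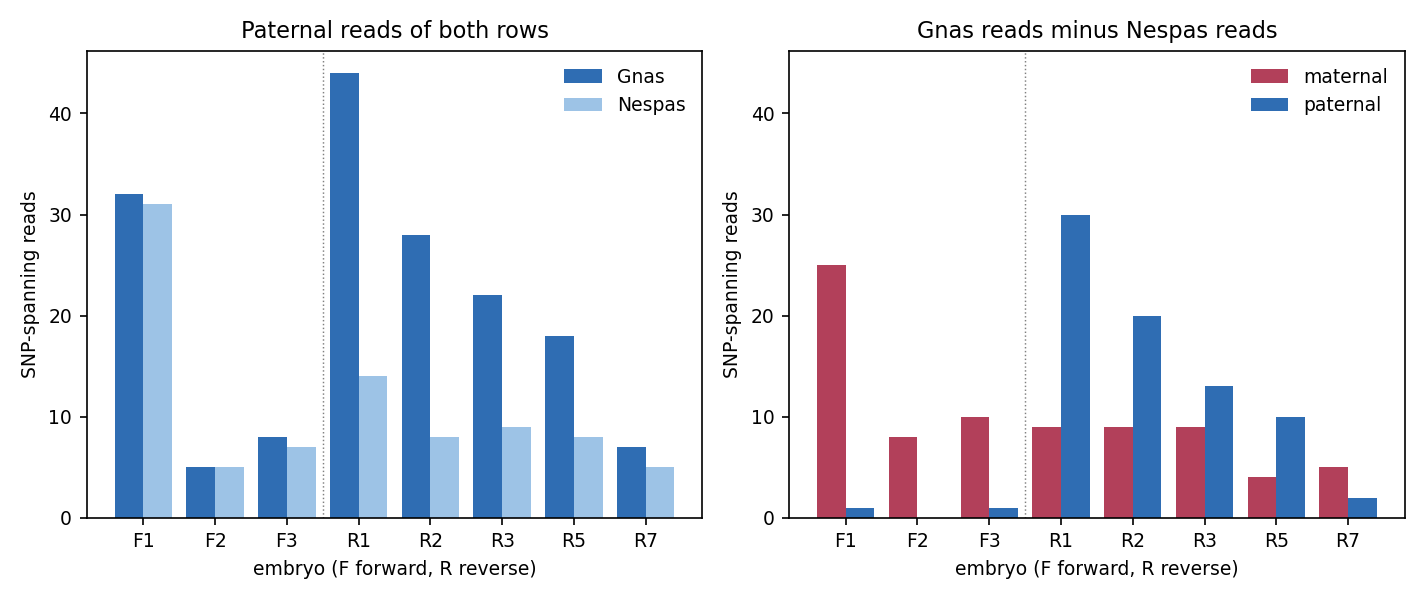
Left, paternal SNP-spanning reads of Gnas (dark) and Nespas (light) in each forward (F) and reverse (R) embryo. Right, maternal (red) and paternal (blue) reads left for Gnas after the Nespas reads were taken off; 2 paternal reads are left in the 3 forward embryos together and 75 in the 5 reverse embryos.

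Stx16 was read from both copies without a common direction. In the forward embryos 1, 2 and 3 it held 20, 9 and 8 paternal and 6, 13 and 13 maternal reads, and in the reverse embryos 1, 2, 3, 5 and 7 it held 61, 7, 8, 8 and 4 paternal and 21, 3, 1, 6 and 13 maternal reads. More paternal reads were found in 5 of 8 embryos, and each cross held embryos of both kinds. Forward embryos had a paternal share of 52.0% ± 21.7 (SD, n = 3) and reverse embryos one of 62.8% ± 24.7 (SD, n = 5), a difference within the spread between embryos (exact permutation test, p = 0.589). The parental difference was 0.43 (SE 0.58, edgeR adjusted p = 1), the strain difference -0.04 (SE 0.58, adjusted p = 0.982), and equivalence was not called (adjusted p = 0.295). Reverse embryo 1 alone held 82 of the 201 reads, and without it the parental difference was 0.09 (edgeR adjusted p = 0.999). The same value without forward embryo 1 was 0.08 (adjusted p = 1).

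Npepl1 held more paternal than maternal reads in 6 of 8 embryos. The forward embryos 1, 2 and 3 held 33, 21 and 30 paternal and 12, 31 and 2 maternal reads, and the reverse embryos 1, 2, 3, 5 and 7 held 2, 34, 22, 30 and 37 paternal and 4, 1, 2, 3 and 10 maternal reads. Forward embryo 2, with 52 reads, and reverse embryo 1, with 6 reads, were the embryos with more maternal reads. Of the reads, 69.2% ± 26.9 (SD, n = 3) came from the paternal copy with a B6 mother and 78.4% ± 26.1 (SD, n = 5) with a cast mother, so that both crosses were on the paternal side of the median of all genes. Forward embryo 3 and reverse embryos 2, 3 and 5 had shares of 93.8%, 97.1%, 91.7% and 90.9%, with 95% Wilson intervals whose lower bounds were 79.9%, 85.5%, 74.2% and 76.4%.

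The parental difference of Npepl1 depended on the model. It was 1.63 (SE 0.60) and not called across all genes (edgeR adjusted p = 0.371, unadjusted p = 0.0126), whereas it was called in a model with a term per embryo (the embryo-blocked model), which pairs both alleles of an embryo (1.90, adjusted p = 0.0530). It was also called when all genes with a read were tested (adjusted p = 0.0454), and not by DESeq2 (adjusted p = 0.279). The exact permutation test, which pairs the alleles as well, gave p = 0.0313. The same exact test gave p = 0.0781 without forward embryo 1 or 3, p = 0.0625 without reverse embryo 2, 3, 5 or 7, and p = 0.0313 without forward embryo 2 or reverse embryo 1, so that 6 of the 8 omissions moved it past 0.05. The fitted difference was 1.52 without forward embryo 1 (edgeR adjusted p = 0.892), 2.44 without forward embryo 2 (adjusted p = 0.118) and 1.74 without reverse embryo 1 (adjusted p = 0.147). No strain difference was called (-0.45, SE 0.59, edgeR adjusted p = 0.729), and equivalence was not called (adjusted p = 0.912).

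**Figure D3:**
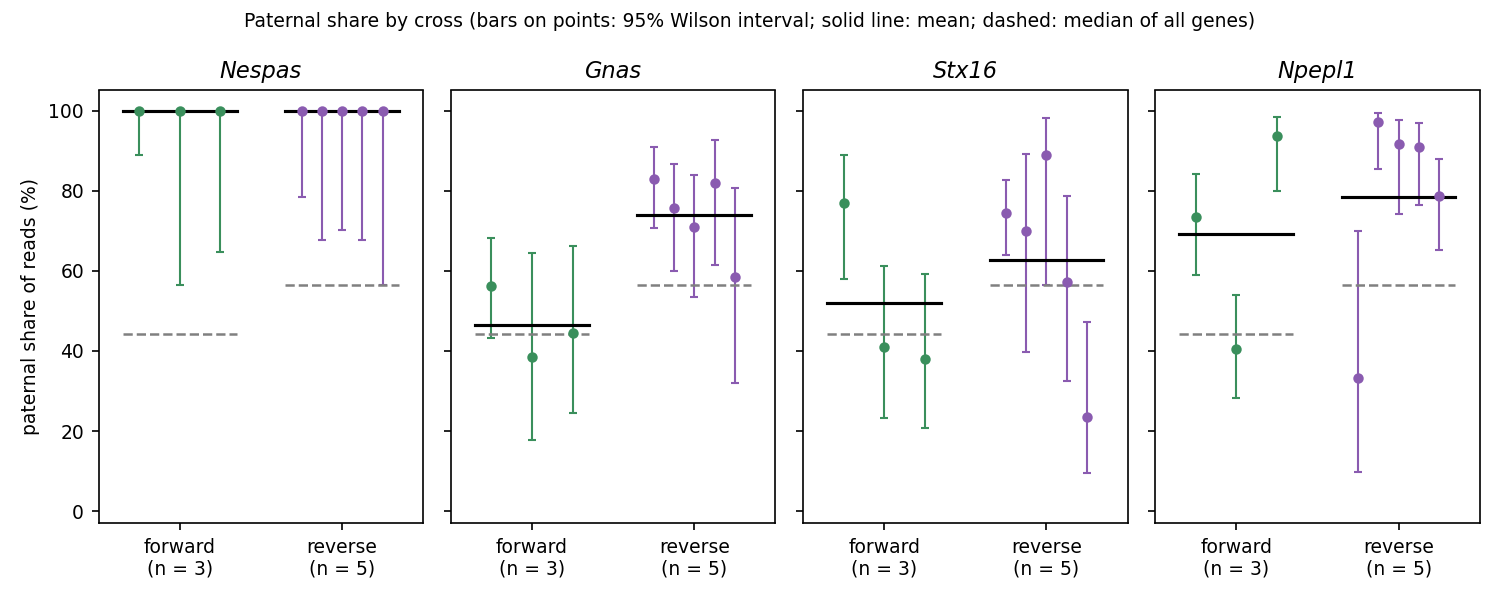
Paternal share of SNP-spanning reads (percent) in each of 3 forward and 5 reverse embryos for the 4 genes; bars on points are 95% Wilson intervals of the counts, the solid line is the mean of the cross and the dashed line the median of all genes in that cross. Nespas is at 100% in all embryos. The shares of Gnas do not overlap between the crosses, and neither do the medians of all genes. The shares of Stx16 and Npepl1 range from 23.5 to 88.9% and from 33.3 to 97.1%.

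Of the 4 genes, 1 (Nespas) was called for a parental difference, none for a strain difference and none for equivalence, beside 1.11% (paternal), 0.31% (maternal), 15.4% and 35.4% of all genes tested. At unadjusted p under 0.05, edgeR gave a parental difference for 2 genes (Nespas and Npepl1) and a strain difference and equivalence for none. DESeq2 and the embryo-blocked model gave no strain or equivalence call either. More paternal than maternal reads in every embryo were found for Nespas alone among the 4, and for 1.19% of the genes tested.

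The summed level of both copies was compared between the crosses as well. Nespas was at 9.82 RPM ± 8.33 (SD, n = 3) in forward embryos and at 6.36 ± 1.87 (SD, n = 5) in reverse embryos, and Gnas at 20.5 ± 13.2 and 21.9 ± 9.16. Stx16 was at 17.5 ± 1.74 and 19.1 ± 20.9, and Npepl1 at 33.3 ± 11.2 and 22.8 ± 15.1. These levels count only reads over SNPs and are not per length, so that they do not rank the genes. The fitted differences, reverse over forward, were between -0.62 for Nespas and 0.09 for Gnas on the log2 scale, and none of the 4 was called (edgeR adjusted p = 0.859 to 0.996), with 0.103% of all genes called. At an unadjusted p under 0.05 the count was 0 as well, and DESeq2 called 0 of the 4.

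The genes around the domain gave no parental call. Within 1 Mb of Gnas, 16 other genes were in the table and 10 were tested, of which 0 were called toward either parent (edgeR, lowest adjusted p = 0.995; 0 at an unadjusted p under 0.05; 0 by DESeq2 and 0 in the embryo-blocked model) and 0 for a strain difference. Their parental log2 ratios ran from -0.78 to 1.58 with a median of 0.11, compared with -0.01 over all genes tested. Equivalence was called for 4 of the 10, near the 35.4% of all genes tested. These were Nelfcd, a subunit of the transcription-pausing factor NELF (449 paternal and 535 maternal reads), Atp5e, a subunit of the mitochondrial ATP synthase (3899 and 3213), Slmo2 (953 and 829) and Rab22a, a small GTPase of endosomes (603 and 457). Other tested neighbours were Vapb (118 and 85 reads), Ctsz (120 and 95), Ppp4r1l-ps (220 and 120), Gm36859 (14 and 2), Gm14393 (20 and 18) and Gm14391 (45 and 34), again with paternal reads first.

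**Figure D4:**
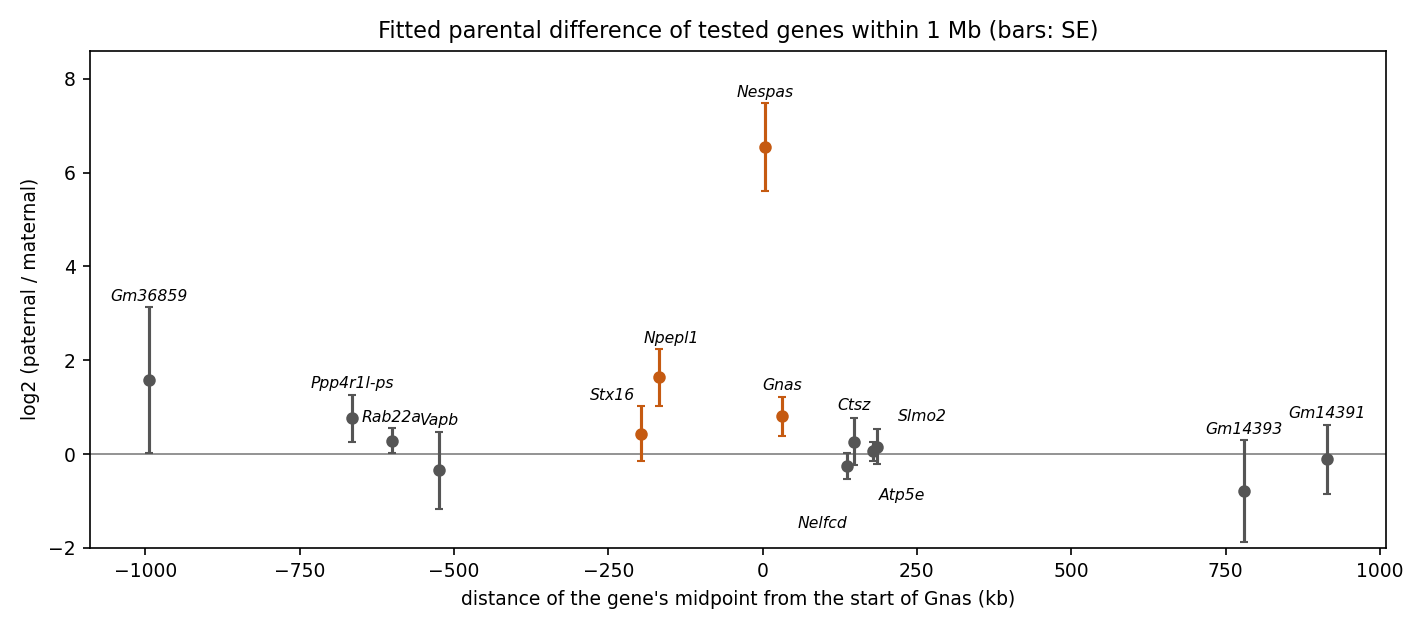
Fitted log2 ratio of paternal to maternal reads (points; bars are SE) of the 14 tested genes within 1 Mb of Gnas against the distance of their midpoints from the start of Gnas (kb), with the 4 genes of the domain in orange and 10 neighbours in grey. Nespas is at 6.54, and the neighbours lie between -0.78 and 1.58.

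Noncoding RNAs and partner genes of other imprinted domains were read in the same embryos. The antisense or host noncoding RNAs Kcnq1ot1 and Airn were called toward the paternal allele (log2 ratios of 5.39 and 4.13, edgeR adjusted p = 5.61e-06 and 2.55e-06), as Nespas was, and Snhg14, the transcript antisense to the ubiquitin ligase gene Ube3a, held 0 maternal and 35 paternal reads without a call (edgeR adjusted p = 0.105). Ube3a was read from both copies (358 maternal and 297 paternal reads, edgeR adjusted p = 0.913), with 23.4% of the pooled forward reads and 55.1% of the pooled reverse reads from the paternal copy. Igf2r was called toward the paternal allele (2.02, edgeR adjusted p = 0.0478), and Meg3, a noncoding RNA known as maternally expressed, toward the maternal allele (76 maternal and 1 paternal read, edgeR adjusted p = 0.0016). Of the 9 genes of this list, 7 were tested and 5 were called, where 1.11% (paternal) and 0.31% (maternal) of all genes were. The fifth was Kcnq1, whose reads were nearly those of Kcnq1ot1 and add no separate call. Igf2r overlaps Airn in part, and its paternal reads were fewer than those of Airn in every embryo. Whether Airn reads were counted for Igf2r was not tested, so a call separate from that of Airn was not shown. Cdkn1c and Dlk1 held 2 reads and 1 read.

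**Figure D5:**
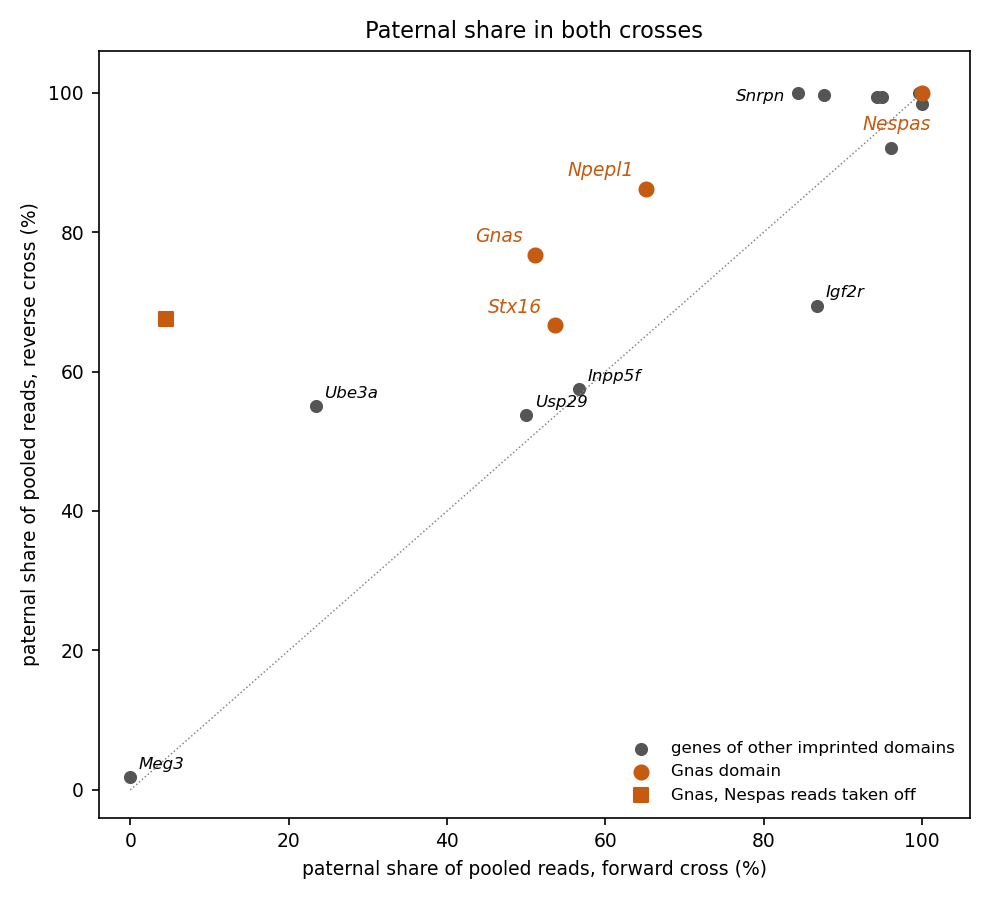
Paternal share of pooled SNP-spanning reads in the forward cross against that in the reverse cross (percent) for the 4 genes of the domain (orange circles), Gnas after the Nespas reads were taken off (orange square) and 14 genes of other imprinted domains with at least 20 reads in each cross (grey); the dotted line marks equal shares. Nespas lies at 100% in both, Gnas at 51.1% and 76.8%, and Gnas without the Nespas reads at 4.44% and 67.6%.

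Genes that act with or beside the 4 were described by 3 lists. Of 57 genes of Gs and cAMP signalling other than Gnas, 41 were tested and 0 were called for a parental difference (edgeR; 4 at an unadjusted p under 0.05), with a median log2 ratio of -0.18 against -0.01 over all genes tested. The lowest adjusted p was that of Prkaca, the catalytic subunit of the cAMP-dependent protein kinase, with 86 paternal and 11 maternal reads (edgeR adjusted p = 0.119). DESeq2 called 2 of them, Prkaca and Pde4d, a cAMP phosphodiesterase, and the embryo-blocked model called 3, Gng12, Gng2 and Pde4d. Pde4d and Gng12 held more maternal reads (404 and 587, against 113 and 367 paternal), and Gng2 more paternal reads (3061 against 2533). Among all 12566 genes tested, DESeq2 made 189 paternal and 66 maternal calls, and the embryo-blocked model made 261 and 130. Equivalence was called for 10 of the 41, against 35.4% of all genes tested, and a strain difference for 6, near the 15.4% of all genes. The adenylyl cyclases Adcy4 (-5.32) and Adcy9 (-1.15), the G protein subunit Gnb5 (-3.95) and the phosphodiesterase Pde8a (-1.70) were higher from B6, and the gamma subunits Gng2 (1.74) and Gng10 (2.07) from cast, all as log2 differences of cast over B6 in edgeR.

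Of 20 SNARE proteins and partners of the Golgi, all tested, 0 were called for a parental difference (edgeR; 1 at an unadjusted p under 0.05, and 0 by DESeq2 or in the embryo-blocked model), with a median of 0.00 on the log2 scale. The gene under 0.05 was Stx6, a syntaxin that pairs with syntaxin 16 in trans-Golgi fusion, with 69 paternal and 22 maternal reads. Equivalence was called for 14, against 35.4% of all genes, and a strain difference for Bet1 (-0.85), Nsf (1.18) and Snap29 (0.72), near the 15.4% of all genes. Of 13 tested aminopeptidases, 0 were called for a parental difference (edgeR; 0 at an unadjusted p under 0.05, and 0 by DESeq2 or in the embryo-blocked model), with a median of 0.13. Equivalence was called for 10, among which were Lap3, a leucine aminopeptidase (1410 paternal and 1434 maternal reads), and a strain difference for Metap2 (-0.92), beside 35.4% and 15.4% of all genes tested.

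The genes whose normalised reads were most like those of Nespas over the 16 allele libraries were Slc38a4 (Pearson r = 0.964), Gm32885 (0.961), Gm12569 (0.955), Gm33149 (0.951) and Zfp202 (0.950), out of 10369 autosomal genes with at least 20 reads in each cross. All 5 lie on other chromosomes and were called toward the paternal allele. Nespas held 0 reads in every maternal library, so genes with few maternal reads rank high. The paternal calls of these 5 follow from that split and are no separate result. Gnas was at rank 237 with r = 0.595. The genes most like Gnas were Gm14532 (0.829), Mkln1os (0.817), Rufy2 (0.784), Nptx2 (0.780) and Ipo5 (0.779), none of which lies on chromosome 2 and none of which was called for a parental difference. These values are descriptions, since the libraries of an embryo share its depth and its cells.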

How the data were processed

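Single blastocysts of embryonic day 3.5 were sequenced with SMART-Seq2. The authors aligned reads to mm10 with STAR (2.5.2b in the submitters' processing notes, with SAMtools 1.9-92 and bedtools), left out reads mapping to multiple locations and counted SNP-spanning reads for either strain in each gene within the Allelome.Pro pipeline. These raw counts were deposited without normalisation, and 2 samples had been removed by the authors for quality. The submitters' notes and the paper name different STAR versions. Use of strand in counting is not given in the sources used here. Because of overlapping transcripts, the paper kept only genes whose reads belonged clearly to a given transcript. Whether the deposited counts had passed that step was not tested. mm10 is the genome of B6, and whether alignment to it moved the paternal shares was not tested.

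Genes were placed by symbol with GENCODE (mm10) and then RefSeq. Genes not placed on an autosome held 2.35% of reads and were not tested. Parental and strain differences were tested with edgeR 4.0.16 (R 4.3.3, limma 3.58.1), with TMM factors, strain and parent as terms and Benjamini-Hochberg adjustment, for genes with 10 or more reads in 1 or more allele libraries, at an adjusted p of at most 0.1. Equivalence used a pair of one-sided tests. The SE given with an edgeR fit was worked back from the log2 ratio and the F statistic of its test. The interval given for Gnas was built from that SE with a normal approximation, so both are approximate. Single genes were tested with exact permutation tests in Python 3.11.15 with scipy 1.17.1. The test that swaps parental labels used log2 ratios (0.5 added to each count), and the test between crosses used paternal shares with nothing added. The scripts were tested on simulated data. DESeq2 1.42.0 and the other alternatives are in the closing section.

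The alleles of 1 embryo are a true pair. Their deviations from the group means correlated in every embryo (r = 0.109 to 0.613). The embryo-blocked model and the exact test that swaps parental labels use this pairing. The main edgeR fit did not use it and took the allele libraries as separate units. Nothing says more than that the embryos are separate, so litters are unknown. The p-values of the exact tests and the embryo-blocked model measure the spread between these embryos. Those of the main edgeR fit measure the spread between their allele libraries. The 4 genes and all lists (Gs and cAMP, Golgi SNARE, aminopeptidase, paternally expressed and control region genes, and cell type markers) were chosen with earlier results of these data known. Neighbours were named where they were tested within 1 Mb, and the most alike genes were the 5 with the highest correlation of log2(CPM + 1), from CPM computed here. Other listed genes were named where they passed a test or showed the range. Markers of further cells were summed as RPM in the forward and reverse embryos. These ranged over 15.1 to 23.2 and 11.6 to 28.5 for the oocyte, 2.40 to 15.1 and 4.09 to 7.06 for cumulus cells, 1.60 to 14.4 and 0.969 to 6.13 for epithelium of oviduct and uterus, and 4.00 to 11.5 and 2.73 to 52.4 for red blood cells. Reads without molecular identifiers are not independent molecules, so intervals and limits cover counting error only.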

Additional observations from a re-analysis of the deposited data

Results flagged for a closer look

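Among 7 groups of 5 reverse embryos examined for a single embryo far from the others (gap over range above Dixon's critical value), 3 were singled out, all in reverse embryo 1. Chance singles out about 1 in 20 groups, and the 3 values come from 1 library. Nespas was at 9.53 RPM (reads scaled to the depth of the embryo) in reverse embryo 1, and the nearest other reverse embryo was at 6.16. Stx16 was at 55.8 RPM against 16.5 in the nearest. The paternal share of Npepl1 was 33.3% from 6 reads against 78.7% in the nearest. That embryo also had the lowest level of trophectoderm genes, as given in the report, and the part of this in the 3 values was not tested.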

How the results depend on the processing

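In 422 of 505 alternative values of 69 results, direction and side of the threshold were kept or the value stayed within its spread. Nespas was called toward the paternal allele under every alternative in which it could be tested, with adjusted p of at most 0.0181; with at least 10 reads required in every embryo it was not tested, and its strain difference could not be fitted with the replicate block or a cross term. Taking the Nespas reads off Gnas turned its parental difference to -1.17, to -1.72 with the replicate block, to -1.12 by DESeq2 and to -0.96, -1.17, -1.33, -1.31, -1.24, -1.14, -1.19 and -1.04 without forward embryos 1, 2 and 3 and reverse embryos 1, 2, 3, 5 and 7 in turn, and its mean log2 ratio over embryos to -1.49. The strain difference of Gnas then became -1.81, -2.17 with the block and -1.81 by DESeq2, and -1.68, -1.93 and -1.92 without reverse embryos 1, 3 and 7; it was called in these fits (adjusted p = 0.0915 with all embryos) but not without forward embryos 1, 2 and 3 or reverse embryos 2 and 5 (edgeR adjusted p = 0.365, 0.156, 0.176, 0.129 and 0.150). Its paternal share became 4.31% and 61.0%. The parental difference of Npepl1 was called with the replicate block (1.90) and without a filter (1.64). No other call of the 4 genes changed under the block; the strain difference of Stx16 moved from -0.04 to 0.021. With 1 added to each allele, the paternal share of Nespas was 90.5% and 90.1%.

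Without single embryos, the strain difference ranged from -0.38 to 0.32 for Stx16 and from -0.80 to 0.21 for Npepl1, and the cross difference from -0.18 to 0.72 for Gnas, from -0.95 to 0.31 for Nespas and from -0.79 to 0.27 for Stx16. In the exact permutation tests, left without single embryos after the data were seen, the mean log2 ratio ranged from 0.52 to 0.79 for Gnas and from 1.40 to 2.44 for Npepl1, and the difference in share from 23.7 to 32.5 for Gnas and from -5.19 to 21.5 for Npepl1.

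The paternal calls numbered 139, but 67 with at least 10 reads in every embryo, 276 without a filter, 261 with the block and 212 with edgeR's newer fit (legacy = FALSE). The maternal calls numbered 39, but 66 by DESeq2 and 8, 130, 130 and 94 under those 4 settings, and 17 to 58 without single embryos (17, 24 and 21 without forward embryos 1, 2 and 3). Calls toward B6 numbered 2251 with 1 library size per embryo and 702 with at least 10 reads in every embryo, and those toward cast 325, 362 and, with the block, 1242, and 288 to 851 without single embryos. Equivalence was called for 0 genes at a margin of 1.5-fold (edgeR, 1121 at an unadjusted p under 0.05) and for 1642 to 5657 without single embryos, the lowest without a forward embryo. Cross calls numbered 130 by DESeq2, 143 without a filter and 3 to 163 without single embryos (163 without reverse embryo 1). Fewer genes were tested under the stricter filter; the other causes were not tested. Depth limits Nespas to 5 to 31 reads per embryo.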
